A study of Mus musculus with 6 samples.

Results

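The BCL2 family of apoptosis regulators was examined in mouse bone marrow-derived mesenchymal stromal cells (MSCs). The 10 genes were chosen by symbol, as anti-apoptotic members (Bcl2, Bcl2l1, Bcl2l2 and Mcl1), effectors (Bax and Bak1) and BH3-only members (Bid, Bcl2l11, Bbc3 and Pmaip1), and all 10 were found among the 23420 genes of the count table. The cells came from the femurs of female C57BL/6 mice, were expanded in culture and were transduced with a retrovirus that also carries eGFP. Ctl MSC (3 libraries, numbered 1 to 3) received the empty AP2 construct, and MSC-TPr (3 libraries, numbered 1 to 3) received the construct coding for the thymoproteasome subunits β1i, β2i and β5t. Both groups thus carry the virus backbone, and the comparison asks what differed with the added subunits. The labels do not say whether libraries of a group came from separate cultures, so the p-values below measure the spread between these libraries, which may be technical.

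The BCL2 family controls the mitochondrial route of apoptosis. BAX and BAK form pores in the outer mitochondrial membrane that release cytochrome c, the anti-apoptotic proteins hold them in check, and the BH3-only proteins relay stress signals by binding the anti-apoptotic proteins or by activating BAX and BAK. Cultured cells rely on this balance to survive, and several members (Bax, Bbc3 and Pmaip1) are known targets of the tumour suppressor p53. Transcript levels show only 1 layer of this control, since MCL1 and several BH3-only proteins are also set by protein turnover, cleavage and phosphorylation.

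Polyadenylated RNA was sequenced, and 16158756 to 22158887 reads per library were counted on genes. The unit below is CPM, which is reads divided by the TMM-scaled library size. The smallest detectable amount was set at 3 reads, or 0.139 to 0.181 CPM depending on the library, for counting error alone. The libraries numbered 1 stand apart from their groups. The mean level of 15 cell division genes reached 127 CPM in the control numbered 1 but 13.6 and 13.4 CPM in those numbered 2 and 3, whereas MSC-TPr 1 had 13.9 CPM and its companions 2 and 3 had 117 and 127 CPM. Over all tested genes, the library nearest to Ctl MSC 1 was MSC-TPr 3, and the one nearest to MSC-TPr 1 was Ctl MSC 3. None of the transduced genes Psmb9, Psmb10 and Psmb11 was higher in all MSC-TPr libraries than in all controls, so each direction below is one between library labels. Whether the labels of the libraries numbered 1 are right was not tested, and each count of members without overlap between the groups rests on those labels. Psmb10 was at 27.8, 8.81 and 8.38 CPM across the controls (libraries 1 to 3) and 8.97, 17.3 and 15.2 CPM across MSC-TPr (1 to 3). Psmb9 had 56, 15 and 15 reads across the controls and 10, 21 and 26 across MSC-TPr. Psmb11 had 2, 4 and 2 reads across the controls and 4, 6 and 1 across MSC-TPr, close to the smallest detectable amount in both groups. Whether reads of the construct were counted on these genes is not given in the sources used here. The log2 fold change of each member is therefore given over all 6 libraries and again over the 4 libraries numbered 2 and 3. For genes of the other lists, the fit of 4 libraries is given mainly by its calls. The libraries left out of the second fit were chosen after these values were seen. In the 4 that remain, cell division genes are low in both controls and high in both MSC-TPr libraries. The p-values over the 4 libraries thus describe those libraries and are not taken as a test of the construct. Of the stromal markers, Eng (142 to 204 CPM), Cd44 (142 to 536 CPM) and Col1a1 (354 to 6916 CPM) were present in every library, Nt5e reached 2.66 to 20.2 CPM, and Thy1 had at most 0.0604 CPM. The leukocyte marker Ptprc had at most 0.0928 CPM and Cd3e had 0 reads, while Cd68 reached 0.789 to 14.2 CPM. The summed level of the haematopoietic markers was 2.36 to 9.77 CPM across the controls and 1.76 to 14.2 CPM across MSC-TPr, and that of the endothelial markers 0.785 to 3.09 CPM and 1.62 to 3.32 CPM. In bulk RNA, fewer cells of a type and less RNA per cell cannot be told apart.

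All 10 members were transcribed in these cells, at levels that span a wide range. On a scale of CPM per kilobase of merged exons, which allows genes to be compared, Mcl1 was highest, with 55.6 to 71.8 and a median of 60.4 over the 6 libraries. Bax followed with a median of 45.8 (41.3 to 52.2), then Bak1 with 37.3 (20.5 to 43.9) and Bid with 31.9 (24.5 to 39.7). The ranges of Bax, Bak1 and Bid overlap one another, whereas that of Mcl1 lay above all of them. Bcl2l2 had a median of 15.4, Pmaip1 of 10.6 and Bcl2l1 of 10.01, and their ranges overlap as well. Bbc3 reached 5.39, Bcl2 2.04 and Bcl2l11 0.556 CPM per kilobase. The range of Bid lay above that of Bcl2l2, and from Bcl2l2 downward each member overlapped the next. The most abundant of the 4 anti-apoptotic members was thus that of MCL1, a short-lived protein, while Bcl2, the founding member of the family, was the scarcest of the 4 anti-apoptotic members. When levels were divided by the longest transcript of each gene instead of its merged exons, Bax ranked above Mcl1 (65.7 against 60.4), Bid (46.9) above Bak1 (37.6) and Bcl2l1 (17.9) above Pmaip1 (10.7).

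**Figure D1:**
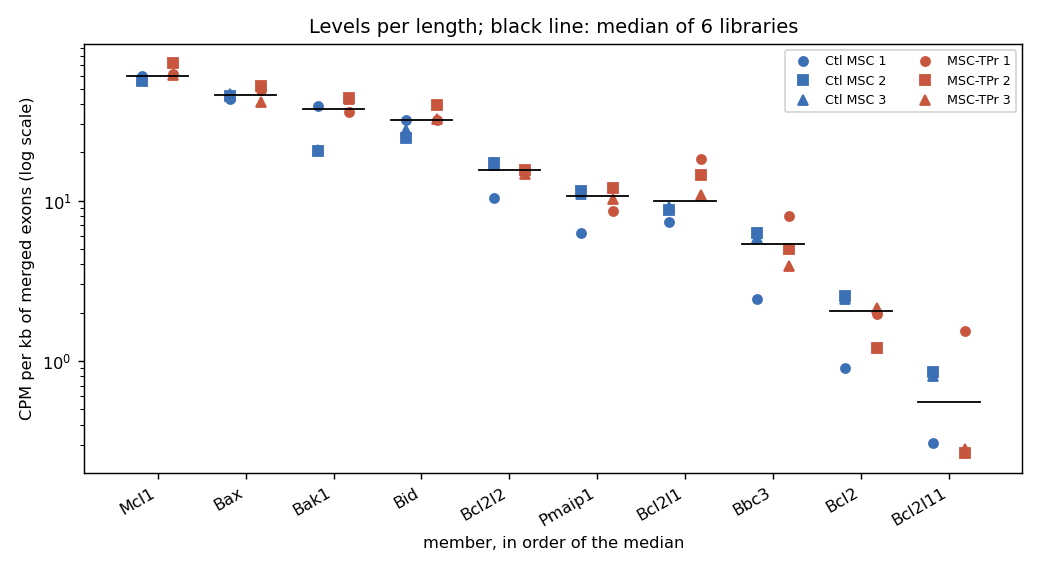
Levels of the 10 members in CPM per kilobase of merged exons (vertical axis, log scale), with 1 point per library and a black line at the median of 6 libraries. Mcl1 leads with a median of 60.4, and Bcl2l11 is lowest at 0.556.

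The stretches just upstream of the transcription starts are shown for 5 members, as an aid to reading the values that follow. Bcl2l1, Mcl1 and Bid were the members with no overlap between the groups, Bcl2l11 was the one with the widest range between libraries, and Bax is a classical p53 target. These 5 were chosen after their values were seen. The sequences are from RefSeq on GRCm38.p6 (mm10). They run 5′ to 3′ on the strand of the gene, in the 250 bases before the start. Windows were examined for 9 of the 10 members, and Pmaip1 was left out of this step. Capitals mark matches, on either strand, to the GC box GGGCGG, to the FOXO motif TGTTTAC or to the p53 half-site. Of all 32841 promoter windows of this length, 32.7% hold the GC box, 3.17% the FOXO motif and 7.13% the p53 half-site. A match describes letters and is no evidence that a factor binds there.
Bcl2l1, minus strand, chr2:152831729-152831978: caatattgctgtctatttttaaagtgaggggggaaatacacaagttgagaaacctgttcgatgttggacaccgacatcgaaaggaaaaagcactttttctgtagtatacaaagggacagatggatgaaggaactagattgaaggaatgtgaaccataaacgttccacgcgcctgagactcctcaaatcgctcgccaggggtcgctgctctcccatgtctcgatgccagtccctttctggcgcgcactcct
Mcl1, plus strand, chr3:95658471-95658720: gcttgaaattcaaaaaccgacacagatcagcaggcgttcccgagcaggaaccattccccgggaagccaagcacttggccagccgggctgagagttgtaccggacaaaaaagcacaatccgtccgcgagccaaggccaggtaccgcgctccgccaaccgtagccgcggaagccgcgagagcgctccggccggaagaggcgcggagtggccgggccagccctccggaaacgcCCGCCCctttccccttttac
Bid, minus strand, chr6:120916854-120917074: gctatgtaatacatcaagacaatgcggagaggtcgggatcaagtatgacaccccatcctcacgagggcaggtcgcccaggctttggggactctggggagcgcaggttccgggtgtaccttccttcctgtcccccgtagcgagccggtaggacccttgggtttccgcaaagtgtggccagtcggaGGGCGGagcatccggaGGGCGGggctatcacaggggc
Bcl2l11, plus strand, chr2:128125788-128126037: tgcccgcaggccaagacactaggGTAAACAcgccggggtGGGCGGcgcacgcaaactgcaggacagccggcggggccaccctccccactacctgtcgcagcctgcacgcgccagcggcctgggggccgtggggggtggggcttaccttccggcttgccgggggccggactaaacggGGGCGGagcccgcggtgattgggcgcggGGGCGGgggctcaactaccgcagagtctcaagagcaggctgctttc
Bax, minus strand, chr7:45466899-45467148: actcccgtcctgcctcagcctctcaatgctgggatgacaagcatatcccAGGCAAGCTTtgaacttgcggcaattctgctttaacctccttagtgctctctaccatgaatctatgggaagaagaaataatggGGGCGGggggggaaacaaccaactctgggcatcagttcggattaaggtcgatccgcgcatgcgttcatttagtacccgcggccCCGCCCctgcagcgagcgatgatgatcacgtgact

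RefSeq gives Bcl2l1 and Bcl2l11 further starts, and the windows shown are those of the most upstream one. The windows differ in composition. That of Bcl2l1 holds 12 CpG pairs and 47.6% G and C, with none of the listed motifs, whereas that of Bcl2l11 holds 24 CpG pairs and 72% G and C. Bcl2l11 has 3 GC boxes and a FOXO match that begins 227 bases before the start. FOXO factors are known activators of this gene. The p53 half-site in the window of Bax begins 201 bases before the start and matches on both strands. Bid has 3 GC boxes, of which the last runs into an annotated exon and is left out of the stretch shown. Mcl1 has 1 GC box, 20 bases before the RefSeq start. The median over all windows was 6 CpG pairs, and all of the 5 windows shown exceed it.

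None of the 10 members was called between the library labels over all 6 libraries, with a call defined as an adjusted p under 0.05 (edgeR's quasi-likelihood test, adjusted by Benjamini-Hochberg over all genes) together with a size of at least 0.5 on the log2 scale. Among all 11974 genes tested, 0.0251% were called higher and 0.401% lower in MSC-TPr by this rule. Without adjustment, 1 of the 10 members had a p under 0.05, against 816 genes higher and 985 lower among all 11974. DESeq2 also called 0 of the 10. Log2 fold changes were above 0 for 9 members and below 0 for 1, against 6124 and 5850 of all genes tested. The median was 0.14 for the members and 0.01 over all genes tested. Over the 4 libraries numbered 2 and 3, Bcl2l2, Bcl2l11, Bbc3 and Pmaip1 turned from above to below 0. In 3 members (Bcl2l1, Mcl1 and Bid) the lowest MSC-TPr library exceeded the highest Ctl MSC library, a pattern found in 10.6% of all genes. The opposite pattern was found in 0 members and in 12.1% of all genes.

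Over the 4 libraries numbered 2 and 3, Bak1 and Bcl2l1 were called higher and Bcl2l11 lower in MSC-TPr. By the same rule 20.6% of the 12122 genes tested were called higher and 19.4% lower in those libraries, so 2 and 1 of 10 members are near the background. The median log2 fold change of the members was then 0.01, beside −0.00 over all genes. The libraries numbered 1 gave other values. The log2 ratio of MSC-TPr 1 to Ctl MSC 1, a comparison with no replicate, was 2.32 for Bcl2l11, 1.72 for Bbc3, 1.29 for Bcl2l1 and 1.12 for Bcl2. For Bcl2l11, Bbc3 and Bcl2 this is opposite to the sign over the other 4 libraries.

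**Figure D2:**
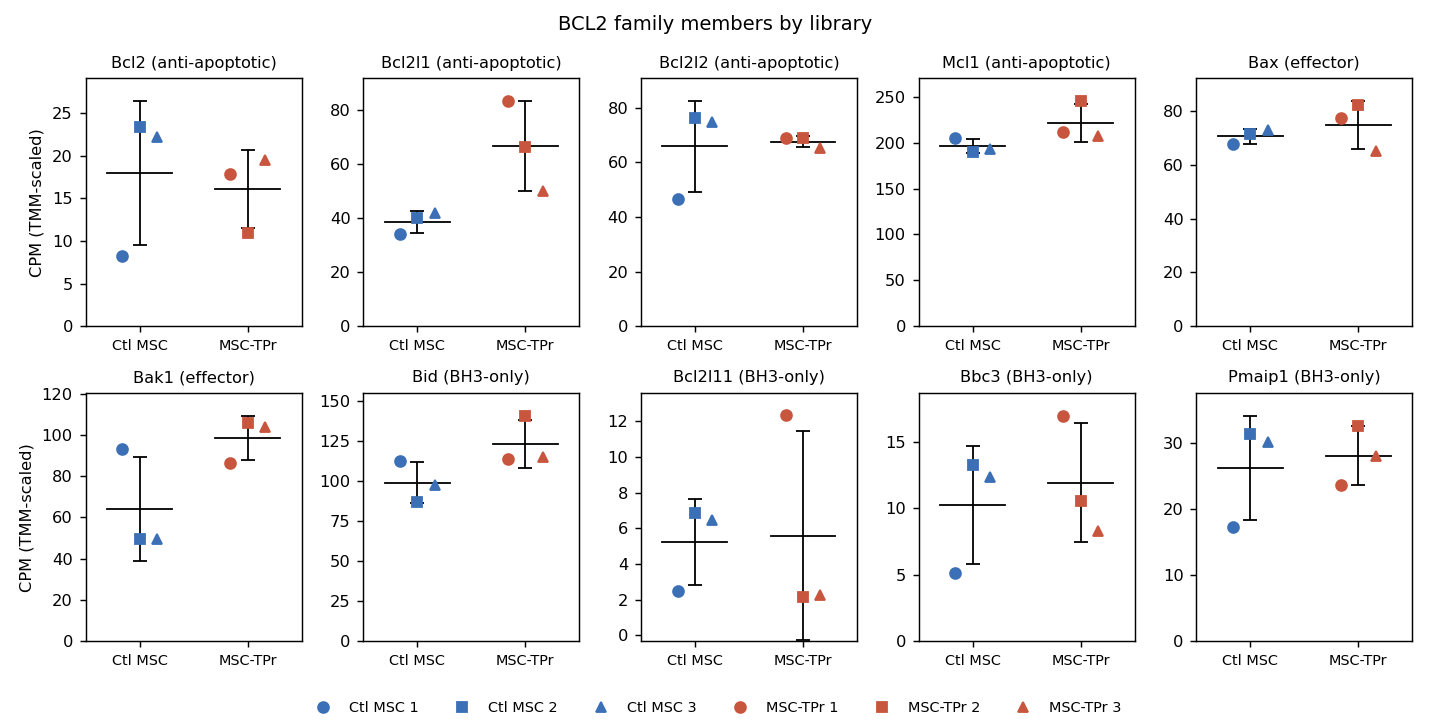
CPM of the 10 members in each library (vertical axes, TMM-scaled), with the group mean and SD of 3 libraries in black and the library number given by the symbol. For Bcl2l1 the 3 MSC-TPr libraries (50.1 to 83.3 CPM) lie above the 3 Ctl MSC libraries (34.0 to 41.8 CPM), while for Bcl2l11 MSC-TPr 1 stands alone at 12.3 CPM.

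Bcl2l1, on chromosome 2 of mm10 from 152780668 to 152831728, encodes BCL-XL, which protects cells by holding BAX and BAK inactive. It measured 34.0, 40.2 and 41.8 CPM across the controls (libraries 1 to 3) and 83.3, 66.4 and 50.1 CPM across MSC-TPr (1 to 3). All libraries labelled MSC-TPr were above those labelled Ctl MSC, although MSC-TPr 3 came close to them. The means were 38.6 ± 4.12 and 66.6 ± 16.6 CPM (SD, n = 3 each), a 1.72-fold difference and the largest log2 fold change of the 10 members, at 0.79 (SE 0.220, 95% interval from 0.26 to 1.31, edgeR unadjusted p = 0.0101). Its edgeR adjusted p over all genes was 0.195, so it did not pass the threshold, and DESeq2 gave an adjusted p of 0.0617. Over the 4 libraries numbered 2 and 3 it was 0.51 (SE 0.162, adjusted p = 0.0449 by edgeR), just past both thresholds. With each library left out in turn the value stayed between 0.59 and 0.96.

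Mcl1 lies on chromosome 3 from 95658788 to 95663176 and encodes a labile survival protein that binds BAK and several BH3-only proteins. Its libraries were closely spaced, with 205, 190 and 193 CPM for Ctl MSC 1 to 3 against 212, 245 and 207 CPM for MSC-TPr 1 to 3. The groups did not overlap, but the gap between Ctl MSC 1 and MSC-TPr 3 was narrow. The log2 fold change was 0.17 (SE 0.141, 95% interval from −0.16 to 0.51, adjusted p = 0.609 by edgeR), and 0.24 over the 4 libraries (SE 0.129, adjusted p = 0.169 by edgeR). A rise above 0.51 on the log2 scale is thus outside the interval for Mcl1 over all 6 libraries. No interval was computed over the 4 libraries.

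Bcl2, on chromosome 1 from 106538178 to 106714274, and Bcl2l2, which encodes BCL-W and lies on chromosome 14 from 54883377 to 54888234, were lowest in Ctl MSC 1. Bcl2 measured 8.22, 23.4 and 22.2 CPM across the controls (libraries 1 to 3) and 17.9, 10.9 and 19.5 CPM across MSC-TPr (1 to 3). The groups overlapped, and Ctl MSC 1 and MSC-TPr 2 were the low libraries. The difference for Bcl2 was −0.16 on the log2 scale over 6 libraries (SE 0.436, adjusted p = 0.896 by edgeR) and −0.57 over 4 (SE 0.265, adjusted p = 0.124 by edgeR). Exons of Bcl2 overlap D630008O14Rik on the opposite strand by 6.09% of their length. Bcl2l2 measured 46.6, 76.3 and 74.6 CPM for Ctl MSC 1 to 3 against 69.0, 68.8 and 65.2 CPM for MSC-TPr 1 to 3, where only Ctl MSC 1 stood out, below all others. The log2 fold change of Bcl2l2 was 0.04 (SE 0.215, adjusted p = 0.949 by edgeR) over 6 libraries and −0.17 (SE 0.109, adjusted p = 0.245 by edgeR) over 4, a change of sign. Its count is uncertain, because 13.3% of its merged exons are shared with Gm20521 on the same strand.

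Among the effectors, Bak1 differed between the libraries and Bax hardly at all. Bak1, on chromosome 17 from 27019810 to 27029009, encodes BAK, which resides in the outer mitochondrial membrane. It measured 93.3, 49.5 and 49.6 CPM across the controls (libraries 1 to 3) and 86.2, 106 and 104 CPM across MSC-TPr (1 to 3). The low libraries were Ctl MSC 2 and 3 alone, and Ctl MSC 1 lay within the range of MSC-TPr. Over 6 libraries the log2 fold change was 0.62 (SE 0.283, 95% interval from −0.06 to 1.30, adjusted p = 0.368 by edgeR). With the libraries numbered 1 left out, it was 1.08 (SE 0.108, adjusted p = 0.00095 by edgeR), from 49.5 and 49.6 CPM to 106 and 104 CPM, and the pair numbered 1 gave −0.11. Exons of Bak1 overlap separate annotation entries of Ggnbp1 on the opposite strand by 7.35% and 18.2% of their length. Whether these overlaps coincide was not examined. Per the study's methods the libraries were made with a stranded kit. The sources used here do not say whether reads were also counted by strand.

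Bax, on chromosome 7 from 45461697 to 45466898, encodes the effector that moves from the cytosol to mitochondria on activation. It measured 67.7, 71.4 and 73.1 CPM for Ctl MSC 1 to 3 against 77.5, 82.2 and 65.1 CPM for MSC-TPr 1 to 3, and the groups overlapped. The log2 fold change was 0.08 (SE 0.148, 95% interval from −0.27 to 0.44, adjusted p = 0.835 by edgeR) over 6 libraries and 0.03 (SE 0.144, adjusted p = 0.881 by edgeR) over 4. Gm45808 shares 12.2% of its merged exons on the same strand, so part of its count is uncertain. Of the 10 members, Bax and Mcl1 varied least between libraries, the highest library being 1.26 times the lowest for Bax and 1.29 times for Mcl1.

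Of the 10 members, the one that varied most between libraries was a BH3-only gene. Bcl2l11, on chromosome 2 from 128126038 to 128162547, encodes BIM, which binds all anti-apoptotic members and can activate BAX and BAK. It measured 2.48, 6.84 and 6.45 CPM for the controls (41, 128 and 117 reads) against 12.3, 2.13 and 2.27 CPM in MSC-TPr (223, 36 and 49 reads). MSC-TPr 1 was the highest library and MSC-TPr 2 and 3 the lowest, with Ctl MSC 1 beside them. Over 6 libraries the log2 fold change was 0.08 (SE 0.778, 95% interval from −1.78 to 1.95, adjusted p = 0.971 by edgeR), a wide interval. Over the 4 libraries it was −1.59 (SE 0.202, adjusted p = 0.0021 by edgeR), and without MSC-TPr 1 alone it was −1.25 (adjusted p = 0.241 by edgeR). Without Ctl MSC 1 alone it was −0.25, so the sign for Bcl2l11 turned when either library numbered 1 was left out.

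Bid, on chromosome 6 from 120891930 to 120916853, links death receptors to mitochondria after its cleavage by caspase-8, and was the most abundant of the 4 BH3-only members. It measured 113, 87.1 and 97.6 CPM across the controls (libraries 1 to 3) and 114, 141 and 115 CPM across MSC-TPr (1 to 3). The groups did not overlap, but only by the small gap between Ctl MSC 1 (112.9 CPM) and MSC-TPr 1 (113.8 CPM). The log2 fold change was 0.32 (SE 0.167, 95% interval from −0.09 to 0.72, adjusted p = 0.433 by edgeR) over 6 libraries and 0.48 (SE 0.143, adjusted p = 0.0375 by edgeR) over 4, where it passed the p threshold but not that of size. Exons of Bid overlap those of Bcl2l13 on the opposite strand by 17.7% of their length.

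Bbc3 and Pmaip1 encode PUMA and NOXA, BH3-only proteins induced by p53. Bbc3, on chromosome 7 from 16308393 to 16318205, measured 5.14, 13.2 and 12.4 CPM for Ctl MSC 1 to 3 against 16.9, 10.5 and 8.30 CPM for MSC-TPr 1 to 3. Its lowest library was Ctl MSC 1 and its highest MSC-TPr 1, and the groups overlapped. Bbc3 gave a log2 value of 0.22 (SE 0.436, adjusted p = 0.854 by edgeR) over 6 libraries and of −0.44 (SE 0.179, adjusted p = 0.0871 by edgeR) over 4. Pmaip1, on chromosome 18 from 66458533 to 66465565, measured 17.2, 31.4 and 30.1 CPM across the controls (libraries 1 to 3) and 23.6, 32.6 and 28.1 CPM across MSC-TPr (1 to 3), again with Ctl MSC 1 lowest. Its log2 fold change was 0.10 (SE 0.276, adjusted p = 0.898 by edgeR) over 6 libraries and −0.02 (SE 0.131, adjusted p = 0.914 by edgeR) over 4.

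**Figure D3:**
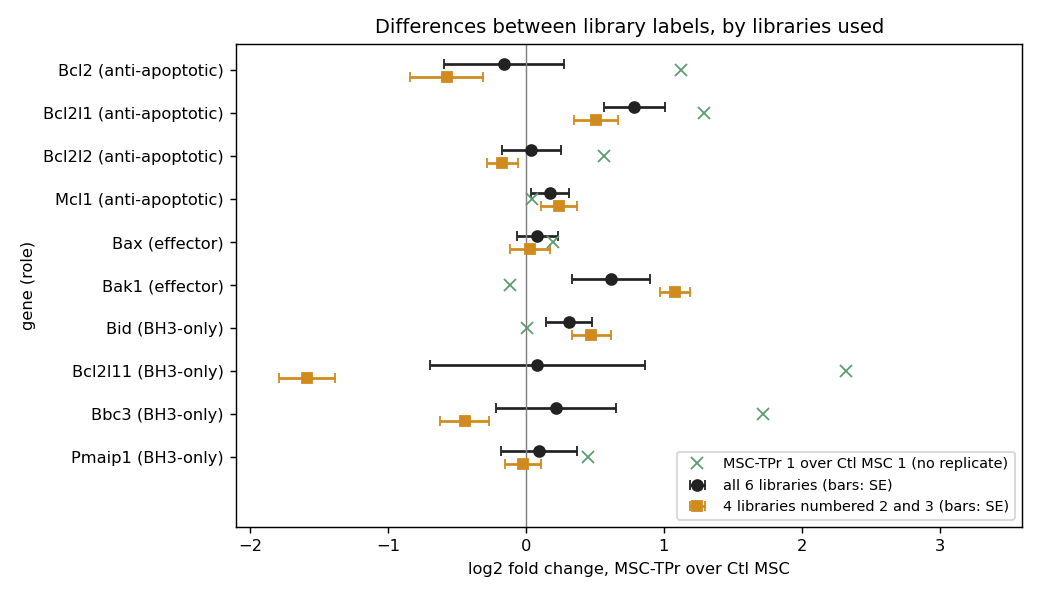
Log2 fold change of MSC-TPr over Ctl MSC (horizontal axis) for each member over all 6 libraries and over the 4 libraries numbered 2 and 3, with bars of 1 SE, and the ratio of the libraries numbered 1 as crosses. Bcl2l11 runs from −1.59 over 4 libraries to 2.32 in the pair numbered 1, whereas Bax and Mcl1 stay near 0.

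The proportions between members were also described, on the scale of CPM per kilobase and with no test. Mcl1 made up 63.5% to 76.2% of the summed transcripts of the 4 anti-apoptotic members, Bcl2l1 9.40% to 18.6% and Bcl2 1.14% to 3.04%. The share of Bcl2l1 was 9.40%, 10.4% and 10.7% for Ctl MSC 1 to 3 against 18.6%, 14.1% and 12.4% for MSC-TPr 1 to 3. On the scale of merged exons, the anti-apoptotic pool was therefore mostly Mcl1 in every library. The part of Bcl2l1 was larger in each library labelled MSC-TPr. The shares depend on the length used. Per longest transcript the median of Bcl2l1 was 17.9 instead of 10.01, while that of Mcl1 stayed at 60.4. Shares were not computed on that scale. Of the summed transcripts of the 4 BH3-only members Bid made up 56.9% to 77.9%. The ratio of Bax to Bcl2, often used as a rough index of apoptotic priming, was 47.8, 17.7 and 19.1 for Ctl MSC 1 to 3 against 25.2, 43.7 and 19.4 for MSC-TPr 1 to 3. It was highest in the libraries with the least Bcl2, and the groups overlapped.

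The values of some members are set beside those of the cell division genes here, as a description of members chosen after their values were seen. Cell division genes were high in Ctl MSC 1, MSC-TPr 2 and MSC-TPr 3 and low in Ctl MSC 2, Ctl MSC 3 and MSC-TPr 1. Bcl2l11 was at 2.48, 2.13 and 2.27 CPM in the first 3 of these libraries and at 6.84, 6.45 and 12.3 CPM in the others. Bbc3 was at 5.14, 10.5 and 8.30 CPM against 13.2, 12.4 and 16.9 CPM, so Bcl2l11 and Bbc3 were lower wherever cell division genes were high. Bak1 was at 93.3, 106 and 104 CPM against 49.5, 49.6 and 86.2 CPM, the opposite arrangement. Bcl2l1 did not follow this order, since its extremes were Ctl MSC 1 at 34.0 CPM and MSC-TPr 1 at 83.3 CPM. The other BH3-only members overlapped between the libraries high and low in cell division genes. Pmaip1 was at 17.2, 32.6 and 28.1 CPM against 31.4, 30.1 and 23.6 CPM. Bid was at 113, 141 and 115 CPM against 87.1, 97.6 and 114 CPM, mostly higher where cell division genes were high. How many other genes were arranged in these ways over the 6 libraries was not counted. Over the 4 libraries, which also differ in cell division genes, 20.6% of all genes were called higher and 19.4% lower. Those shares are calls of another fit and do not stand in for that count. The part of cell division in these differences was not tested.

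**Figure D4:**
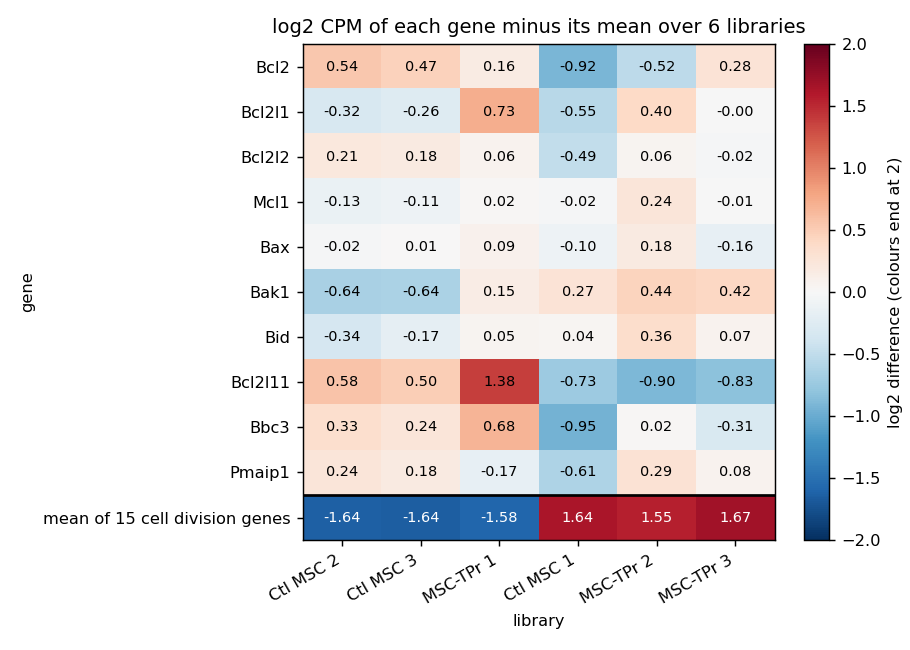
Log2 CPM of each member minus its mean over the 6 libraries (rows, colours and printed values), with the mean of 15 cell division genes in the last row and the libraries ordered with the 3 low in cell division first (columns). Bcl2l11 ranges from −0.90 in MSC-TPr 2 to 1.38 in MSC-TPr 1, while Bax stays within 0.18 of its mean.

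The rest of the family was taken from a list of 15 further genes, of which 7 were abundant enough to be tested. The other 8 had counts at or near 0. Bcl2a1a, Bcl2a1b, Bcl2l10 and Bcl2l14 had 0 reads in all libraries, and Bcl2a1d, Bik, Hrk and Bcl2l15 reached at most 0.374 CPM. For reads assigned to 1 gene, 0 reads allow a level of up to 0.139 to 0.181 CPM. Reads that were not unique were left out, so any reads shared between Bcl2a1a, Bcl2a1b and Bcl2a1d are missing from these counts. BCL2A1 is known from blood cells. None of the 7 tested genes was called over 6 libraries, with 3 log2 fold changes above 0 and 4 below. Bnip3, whose protein acts in the removal of mitochondria, measured 58.4, 47.7 and 50.5 CPM for Ctl MSC 1 to 3 against 77.3, 62.6 and 96.0 CPM for MSC-TPr 1 to 3. Bnip3 did not overlap between the groups, and its log2 fold change was 0.59 (SE 0.198, adjusted p = 0.247 by edgeR). Bmf, a BH3-only gene, and Bcl2l13 had log2 differences of −0.77 and 0.15, for which edgeR gave adjusted p of 0.606 and 0.666. In the fit of 4 libraries 2 of the 7 were called higher (Bok and Bnip3) and 1 lower (Bnip3l), beside 20.6% and 19.4% of all genes.

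Downstream of the family, genes of the apoptosome and caspases (8 tested) gave 0 calls over 6 libraries with edgeR. The list of released factors, VDAC channels of the outer mitochondrial membrane and XIAP (8 tested) gave 0 calls as well. Their median log2 fold changes were −0.29 and 0.17. Cycs, which encodes cytochrome c, measured 219, 158 and 171 CPM across the controls (libraries 1 to 3) and 220, 321 and 235 CPM across MSC-TPr (1 to 3), with a log2 fold change of 0.50 (SE 0.216, adjusted p = 0.338 by edgeR). Dffa, the inhibitor of the caspase-activated DNase, and Casp6, an executioner caspase, gave −0.50 and −0.38 (edgeR adjusted p = 0.381 and 0.448). Vdac1, a channel of the outer mitochondrial membrane, had the lowest p of these lists. It measured 362, 312 and 320 CPM for Ctl MSC 1 to 3 against 493, 518 and 448 CPM for MSC-TPr 1 to 3, with no overlap and a log2 fold change of 0.55 (SE 0.150, adjusted p = 0.186 by edgeR). DESeq2 called Vdac1 with an adjusted p of 0.0209, the 1 gene of these apoptosis lists it called over 6 libraries. Over the whole table DESeq2 called 683 of 12853 genes. Its relatives Vdac2 and Vdac3 gave 0.33 and 0.21 (edgeR adjusted p = 0.392 and 0.563). Of the genes named from these lists, Cycs and Vdac1 were called higher over the 4 libraries and Dffa lower, as was Casp9, an initiator caspase, where 20.6% of all genes were called higher and 19.4% lower.

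Upstream, the death receptor list (7 tested) also gave 0 calls with edgeR over 6 libraries. Fas, a death receptor, was at low levels of 2.72, 1.12 and 1.82 CPM across the controls (libraries 1 to 3) and 0.886, 0.710 and 0.696 CPM across MSC-TPr (1 to 3). For Fas the highest MSC-TPr library was below the lowest control, and the log2 fold change was −1.30 (SE 0.421, adjusted p = 0.238 by edgeR). Tradd, an adaptor of TNF receptors, and Casp8, the initiator caspase that cleaves BID, gave 0.29 and 0.24 (edgeR adjusted p = 0.461 and 0.669). With the libraries numbered 1 left out, 2 of these 7 genes, Tnfrsf10b and Casp8, were called higher, beside 20.6% of all genes.

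Genes of the p53 pathway (12 tested) had a median log2 fold change of 0.12 and 0 calls over 6 libraries. Trp53 itself measured 164 to 215 CPM, with a log2 fold change of 0.07 (SE 0.164, adjusted p = 0.882 by edgeR), beside the values of its targets Bax, Bbc3 and Pmaip1 given above. Trp63, a relative of p53, did not overlap between the groups, at 24.2, 14.4 and 13.5 CPM for Ctl MSC 1 to 3 against 3.49, 4.97 and 10.9 CPM for MSC-TPr 1 to 3 (log2 fold change −1.42, SE 0.480, adjusted p = 0.250 by edgeR). Over the 4 libraries the log2 fold change of Trp63 was −0.79 (SE 0.345, adjusted p = 0.108 by edgeR). Trp53inp1, a stress-induced target, gave −1.57 over 6 libraries (SE 0.651, adjusted p = 0.328 by edgeR) and −2.91 over 4 (SE 0.144, adjusted p = 0.00012 by edgeR), while Phlda3 gave 0.49 and 1.05. Over the 4 libraries 3 targets were called higher (Ccng1, Phlda3 and Aen) and 2 lower (Sesn2 and Trp53inp1) of the 12 genes tested, beside 20.6% higher and 19.4% lower over all genes.

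Transcription factors that act on BH3-only genes (6 tested) and enzymes of MCL1 turnover (4 tested) gave 0 calls over 6 libraries. E2f1, Foxo3 and Foxo1 differed by 0.33, −0.35 and 0.25 on the log2 scale, where edgeR gave adjusted p from 0.662 to 0.760. Foxo3, a known activator of Bcl2l11 and Bbc3, measured 10.5, 24.5 and 24.0 CPM across the controls (libraries 1 to 3) and 19.8, 9.46 and 16.9 CPM across MSC-TPr (1 to 3), and was lowest in MSC-TPr 2 and Ctl MSC 1. In the fit of 4 libraries E2f1 was called higher and Foxo3 and Ddit3 lower, beside the same shares of all genes (20.6% and 19.4%). Usp9x, the deubiquitinase of MCL1, and the ligases Huwe1 and Fbxw7 gave values of 0.09, 0.10 and 0.09 (edgeR adjusted p from 0.880 to 0.915).

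The transcripts whose pattern over the 6 libraries lay closest to Bcl2l1, the member with the lowest p, were Ttc27, Taldo1 and Mrps31. Their log2 CPM, centred on each gene's mean, differed from that of Bcl2l1 by 0.0605, 0.0636 and 0.0742 on average per library. Taldo1, an enzyme of the pentose phosphate pathway, measured 86.9, 92.0 and 97.0 CPM for Ctl MSC 1 to 3 against 177, 149 and 108 CPM for MSC-TPr 1 to 3. It was picked for its closeness to Bcl2l1 in these libraries, so their shared order is no separate result.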

How the data were processed

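RNA-seq libraries of 3 Ctl MSC and 3 MSC-TPr samples were grouped by their titles. Per the study's methods, the authors aligned reads to mm10 and deposited raw read counts per gene from Htseq-count. The submitters' processing notes also name CASAVA 1.8.2, Trimmomatic 0.35 and TopHat2 2.1.0. The annotation and the strand setting of the counting are not given in the sources used here. Reads on no gene, ambiguous or not unique (13.8% to 20.8%) were left out.

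The 23420 genes were fitted in R 4.3.3 with edgeR 4.0.16 (TMM, filterByExpr, quasi-likelihood test, group as the only term, Benjamini-Hochberg over all 11974 genes tested). A standard error is the size of the log2 fold change over the square root of F, and 95% intervals use the t distribution with the degrees of freedom of the fit. DESeq2 1.42.0 and other settings were alternatives. Scripts were tested on simulated counts. CPM in the text uses the TMM factors of all 6 libraries. Lengths and overlaps came from GENCODE M21 on the same build, in which all 10 symbols matched.

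The members and lists were chosen with earlier results of these data known. All members are named, and of each other list the genes called, filled up to 3 by lowest unadjusted p. Genes called over the 4 libraries, Bok, Trp53 and the markers were named besides. One haematopoietic marker, Adgre1, was not analysed here, and some genes of the lists are not reported here. No library was a copy of another (lowest chi-square per gene within a group 4.97, where sampling gives about 1).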

Additional observations from a re-analysis of the deposited data

How the results depend on the processing

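The count of members called was 0 under RLE and upper quartile normalization, without a filter, with at least 10 counts in every library, with DESeq2, by adjusted p alone and without any 1 library, and was 3 over the 4 libraries numbered 2 and 3. Genes called over the whole table moved from 51 to 31 with at least 10 counts in every library, to 683 with DESeq2 (244 higher), to 4854 over the 4 libraries, and to between 0 and 108 without 1 library (0 without Ctl MSC 2, without Ctl MSC 3 or without MSC-TPr 3, 1 without MSC-TPr 2 and 108 without Ctl MSC 1). The apoptosis lists went from 0 called to 1 with DESeq2, which called 683 of 12853 genes over the whole table. Over the 4 libraries 18 genes of these lists were called, 11 of them higher. In that fit 20.6% of all genes were called higher and 19.4% lower. The number tested in each list is given above. The log2 fold change changed sign over the 4 libraries for Bcl2l2 (-0.17), Bcl2l11 (-1.59), Bbc3 (-0.44) and Pmaip1 (-0.019). Without 1 library, ranges that cross 0 were -0.50 to 0.079 for Bcl2, -0.15 to 0.16 for Bcl2l2, -1.25 to 0.48 for Bcl2l11, -0.12 to 0.44 for Bbc3 and -0.13 to 0.24 for Pmaip1. Bcl2l1, Mcl1, Bax, Bak1 and Bid stayed above 0 in all fits run. The cause of these changes was not tested. Same-numbered libraries of the groups deviated in opposite directions (correlation across genes -0.774, -0.620 and -0.619), and none correlated best with its own number. Each library was centred on the mean of its group, from which the library numbered 1 stands apart. These correlations therefore cannot show whether the numbers are pairs. The main fit did not use the numbers. With the replicate block 0 genes were called (776 at an unadjusted p under 0.05 in edgeR), and Bcl2l11 changed sign to -0.44. At 36 to 223 reads per library, Bcl2l11 carries the largest counting error of the members.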
